A study of Homo sapiens with 21 samples.

Results

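A set of 8 genes for transcription factors of luminal breast epithelium was followed across every ChIP-seq peak list of CAMA1 cells: GATA3, SPDEF, GRHL2, ELF3, TFAP2A, TFAP2B, TFAP2C and TRPS1. They were chosen by name, 8 of 19970 protein-coding genes in the gene table, and all 8 were found there. For each gene the peaks inside it, within 1 kb of either annotated end and up to 50 kb outside were collected on hg38, windows that span 1.37 Mb in all. These windows held 1692 of the 702826 peaks of the 14 lists.

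Luminal cells line the ducts of the mammary gland, and most breast cancers that express the oestrogen receptor keep their identity. GATA3 is a zinc-finger factor needed for luminal differentiation and works beside FOXA1, a pioneer factor that opens chromatin, and the oestrogen receptor. TRPS1 is an atypical GATA-type factor that acts mainly as a repressor. SPDEF and ELF3 are ETS-family factors of secretory and lining epithelium, GRHL2 is a grainyhead factor that maintains epithelial junction genes such as CDH1, and TFAP2A, TFAP2B and TFAP2C encode AP-2 factors of ectoderm and mammary epithelium. In chromatin, H3K4me3 marks promoters, H3K27ac marks active promoters and enhancers, and Pol II S5P is RNA polymerase II with phosphate on serine 5 of its tail, the form found where transcription begins.

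CAMA1 is a breast cancer line with the oestrogen receptor, which the labels call FGFR1-amplified, and every sample came from this single line. All cells were kept without estradiol for 48 h. Untransfected cells were profiled with antibodies to FGFR1 (a receptor tyrosine kinase, here mapped on chromatin), H3K27ac, H3K4me3, Pol II S5P and FOXA1. FGFR1 was profiled again 72 h after transfection, either with siNT (an siRNA without a target) or with siFOXA1 (an siRNA that targets FOXA1). Each of the 7 groups has 2 libraries with a peak list each, called list 1 and list 2. The 7 input samples were left out. The labels do not say whether the libraries of a group are separate cultures, and the spread between lists may be technical. The FOXA1 level after transfection was not analysed here.

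The lists held 4332 to 154358 peaks. Untransfected FGFR1 was uneven, with 5341 peaks in list 1 and 13135 in list 2, and the transfected lists held 4332 to 6594. The lists give no read counts, and the uniform background recovered from their p-values, 2.11 to 4.33 fragments per position, stands in for depth. A transfected FGFR1 peak therefore rests on as few as 10 fragments at its summit, and an untransfected one on 12 or more. Fold enrichment is the authors' own value, the fragments at a peak's summit over that background with 1 added to each, and it ranks peaks within a list. A region below is a stretch that holds overlapping peaks of both lists of a group. The cell type was checked by regions at gene ends. H3K27ac was found at 10 of 10 luminal markers, 3 of 10 basal, 7 of 10 mesenchymal and 3 of 8 haematopoietic ones, against 67.5% of all protein-coding genes. Pol II S5P was found at 6, 0, 0 and 0 of them, against 38.9%. Pol II S5P was thus found at luminal markers and at none of the others, while the mesenchymal count for H3K27ac was near the share of all genes.

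The promoters that carry the clearest differences are shown here, 5′ to 3′ in the direction of transcription, from 250 bases before to 50 after the RefSeq start (GRCh38.p14, whose primary assembly is hg38). The starts of 5 of the 8 genes matched the RefSeq promoter table. They are ELF3 (chr1:202010337-202010636, + strand), where FGFR1 was strongest at a start of these genes, SPDEF (chr6:34556280-34556579, - strand), where FOXA1 was strongest at a start, the fifth of the 6 starts of GATA3 (chr10:8054438-8054737, + strand) and the inner start of TFAP2A (chr6:10412342-10412641, - strand), both of which carried FGFR1 without FOXA1, and TFAP2B (chr6:50818621-50818920, + strand), which carried neither. Capitals mark exact matches to the searched letters.
ELF3: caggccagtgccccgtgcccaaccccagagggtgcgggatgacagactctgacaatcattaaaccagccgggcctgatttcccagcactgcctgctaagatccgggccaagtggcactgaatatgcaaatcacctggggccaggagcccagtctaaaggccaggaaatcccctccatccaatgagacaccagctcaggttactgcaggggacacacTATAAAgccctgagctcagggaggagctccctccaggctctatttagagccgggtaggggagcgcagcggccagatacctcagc
SPDEF: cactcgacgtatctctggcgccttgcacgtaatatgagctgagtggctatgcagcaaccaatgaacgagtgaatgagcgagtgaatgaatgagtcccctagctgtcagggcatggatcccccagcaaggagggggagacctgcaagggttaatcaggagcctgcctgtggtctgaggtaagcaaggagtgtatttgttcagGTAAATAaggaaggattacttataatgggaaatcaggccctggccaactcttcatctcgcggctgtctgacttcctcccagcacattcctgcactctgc
GATA3: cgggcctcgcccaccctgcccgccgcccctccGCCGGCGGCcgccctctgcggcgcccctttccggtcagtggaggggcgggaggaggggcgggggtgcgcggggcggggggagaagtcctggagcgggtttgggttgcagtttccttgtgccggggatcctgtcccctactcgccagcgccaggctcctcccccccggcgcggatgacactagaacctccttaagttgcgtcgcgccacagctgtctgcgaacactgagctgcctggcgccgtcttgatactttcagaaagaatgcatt
TFAP2A: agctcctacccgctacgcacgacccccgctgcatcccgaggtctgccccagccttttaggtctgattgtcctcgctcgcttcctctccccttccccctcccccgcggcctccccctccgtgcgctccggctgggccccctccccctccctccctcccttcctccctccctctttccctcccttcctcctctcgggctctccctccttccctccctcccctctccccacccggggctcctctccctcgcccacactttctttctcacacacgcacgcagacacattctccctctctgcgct
TFAP2B: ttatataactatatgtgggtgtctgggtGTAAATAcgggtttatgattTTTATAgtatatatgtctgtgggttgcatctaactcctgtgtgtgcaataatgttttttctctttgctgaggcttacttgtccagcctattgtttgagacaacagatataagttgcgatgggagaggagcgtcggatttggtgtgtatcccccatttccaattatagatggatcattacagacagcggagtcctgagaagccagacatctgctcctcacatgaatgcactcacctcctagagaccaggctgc
Both strands were searched for 7 short motifs. Shares are of the 22131 promoters of this length. The forkhead family, to which FOXA1 belongs, was searched as TGTTTAC, held by 2.85% of promoters, and as the variant form TATTTAC, held by 2.02%. The GATA motif was searched as GATAAG, which 5.43% of promoters held. The AP-2 motif was searched as GCCNNNGGC, which 27.4% held. The ETS motif was searched as CCGGAAG, which 12.8% held. The grainyhead motif was searched as AACCGGT, which 0.836% held, and the TATA box was searched as TATAAA, which 9.46% held. None of these contains another. The SPDEF match, GTAAATA, is the reverse form of TATTTAC. It lies at chr6:34556372-34556378, at position -49 from the start and 1 bp from the summit of the FOXA1 region there. The same letters stand at position -222 of TFAP2B, where no FOXA1 region lay. TFAP2B also holds TTTATA, the reverse form of TATAAA, at position -202. The ELF3 match is TATAAA at position -34. The GATA3 match is an AP-2 form, GCCGGCGGC, at position -218, and the inner TFAP2A promoter held none of the 7. A match describes letters and does not show that a factor binds them. The promoters differ in base composition: G and C made up 59%, 52%, 69.3%, 68% and 43% of the 5 sequences in the order shown, against a median of 62.3% over all promoters.

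H3K4me3, H3K27ac and Pol II S5P lay at an annotated end, 5′ or 3′, of nearly all of these genes, and FGFR1 at an end of 3. An H3K4me3 region of both lists came within 1 kb of an end of 8 of 8 genes, against 66.6% of all protein-coding genes. At TFAP2B only the peak of list 2 came that near, and without list 2 or with 500 bp in place of 1 kb the count was 7. H3K27ac was found at 7 (67.5% of all genes) and Pol II S5P at 7 (38.9%), TFAP2B being the gene without either. At GATA3 both lay at the 3′ end only, not at the annotated start. FOXA1 was found at an end of 7 (32.3%), all but GATA3, at TFAP2B at the 3′ end only. FGFR1 was found at an end of ELF3, SPDEF and GRHL2 (19.9%, or 29.9% of genes with H3K4me3 at an end). In transfected cells FGFR1 was at an end of SPDEF (the 3′ end) and GRHL2 after siNT (4.84%) and of 0 of 8 after siFOXA1 (1.95%).

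Annotated ends miss the inner starts of 2 of the 5 genes with a listed start. Within 1 kb of a RefSeq start, 4 of the 5 genes with a listed start carried FGFR1 (20.8% of the 15811 genes with a listed start), GATA3 and TFAP2A joining ELF3 and SPDEF. The same count was 4 for H3K27ac (69.1%), 5 for H3K4me3 (69.6%), 4 for Pol II S5P (41.6%) and 4 for FOXA1 (30.5%), and 0 for FGFR1 after siNT (4.44%) and siFOXA1 (1.69%). Counts at RefSeq starts were added after seeing the data. A gene with more starts has more chances of a call: GATA3 has 6 and TFAP2A 2, while the 15811 genes have 22131 in all. TFAP2B lacked FGFR1, H3K27ac and Pol II S5P at its start as at its ends, and its start also lacked FOXA1. The share of all genes with any region in the gene or within 50 kb was 40.4% for FGFR1, 89.8% for H3K27ac, 89.3% for H3K4me3, 61.7% for Pol II S5P, 91.7% for FOXA1, 16.5% for FGFR1 after siNT and 7.87% after siFOXA1. Of the 8 genes, 5, 8, 8, 7, 8, 2 and 1 had one.

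**Figure D1:**
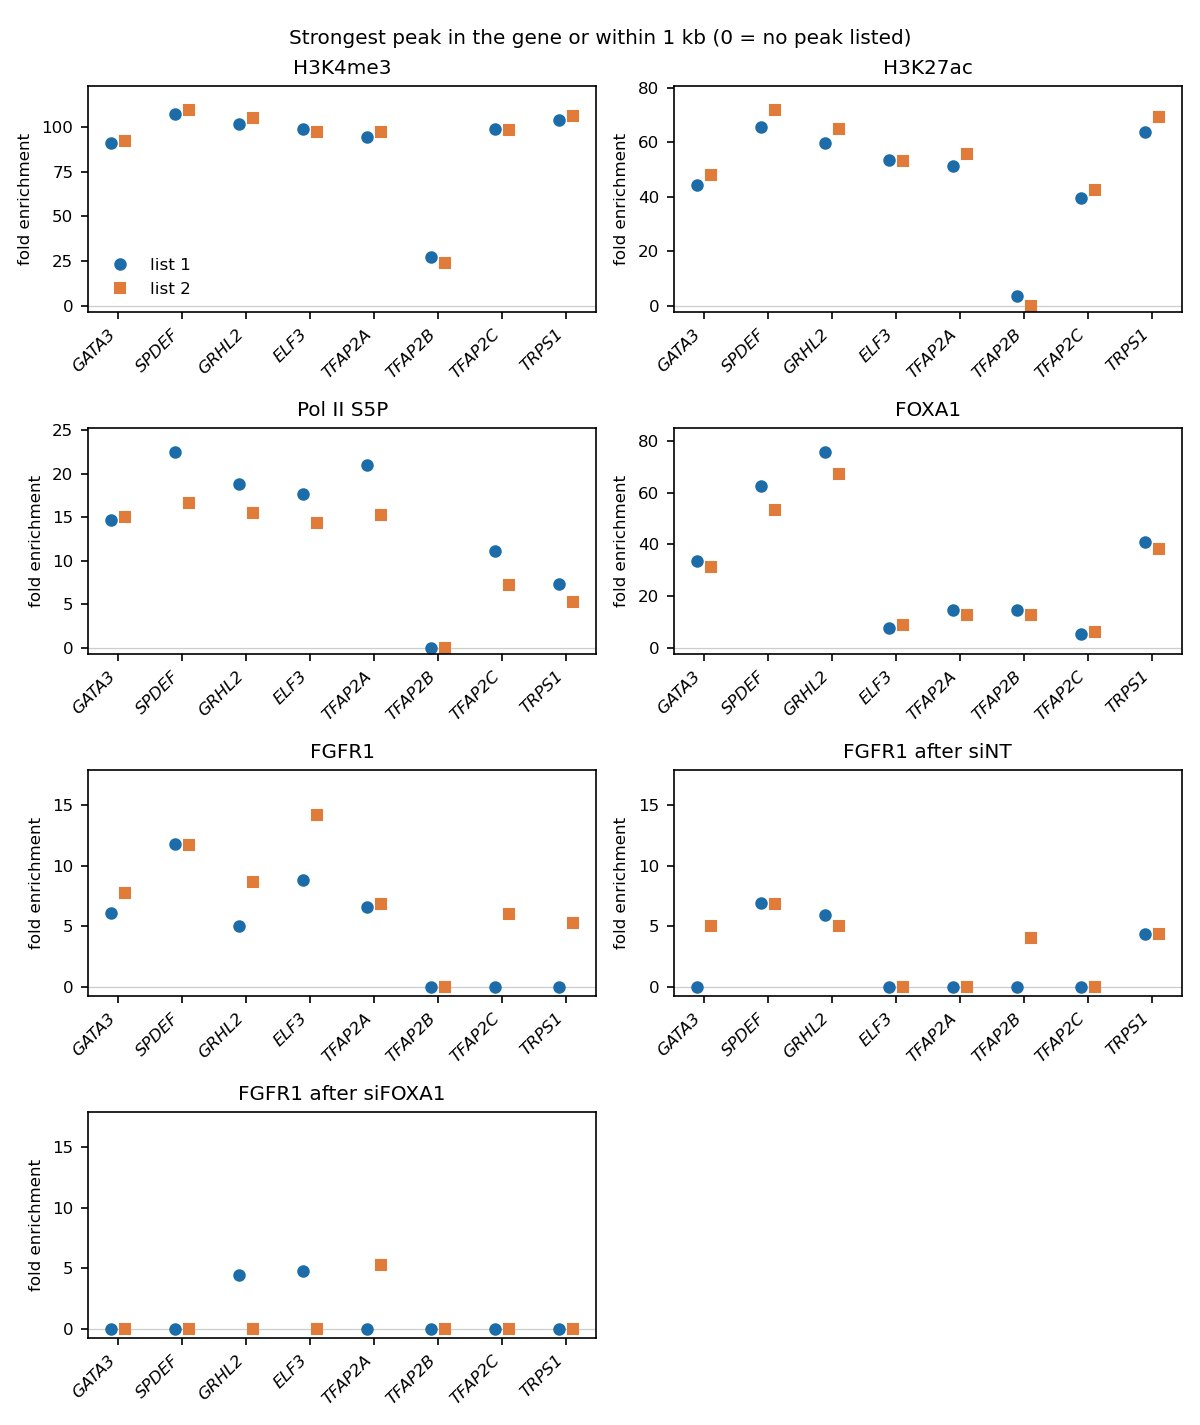
Strongest fold enrichment (linear, the authors' values) in each gene or within 1 kb of it, with list 1 as circles and list 2 as squares, for each of the 7 groups; 0 means that no peak was listed. TFAP2B stands below the other 7 genes in H3K4me3 and H3K27ac and has no Pol II S5P peak, and SPDEF has FGFR1 peaks in the 2 siNT lists but none in siFOXA1.

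SPDEF had the densest FGFR1 signal of the set, and each of its FGFR1 regions lay on FOXA1. Its window held 6 FGFR1 regions, more per 100 kb than 98.7% of genes. FGFR1 peaks were dense beyond the gene too, at 9.07 and 6.23 times the genome mean over the 1-Mb window around it (4.54 and 3.69 times around ELF3), and the part of this in the SPDEF values was not tested. The strongest, at chr6:34546449-34547292 in the gene body and 9459 bp from the start, had a fold enrichment of 11.8 in list 1 and 10.2 in list 2, from 51 and 45 fragments (exact Poisson 95% intervals 8.86 to 15.5 and 7.51 to 13.6, for counting error only). A region at the 3′ end, chr6:34536429-34536971, had folds of 5.69 and 11.8, and that at the start, chr6:34556045-34556483, had 5.46 and 8.44. The lists gave close values in the body and differed at the 3′ end, where the intervals of 3.72 to 8.35 and 8.84 to 15.4 did not overlap.

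The other FGFR1 regions of SPDEF were weaker. A second body region, chr6:34544781-34545574, had folds of 4.78 and 6.44. A pair of regions lay beyond the 3′ end, chr6:34527093-34527488 with 4.78 and 8.66 and chr6:34529695-34529978 with 5.46 and 4.89. The latter was the 1 region of the 18 FGFR1 regions in all windows that had no H3K4me3. FOXA1 at these 6 places ranged widely: its folds were 62.6 and 53.2 at the start, 44.6 and 44.2 at the 3′ end, 44.0 and 36.0 at the stronger body region and 20.7 and 19.9 at the other, but 3.75 and 3.56 or 5.22 and 3.56 at the 2 beyond the gene. The strength of FOXA1 and of FGFR1 thus did not run in the same order there.

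**Figure D2:**
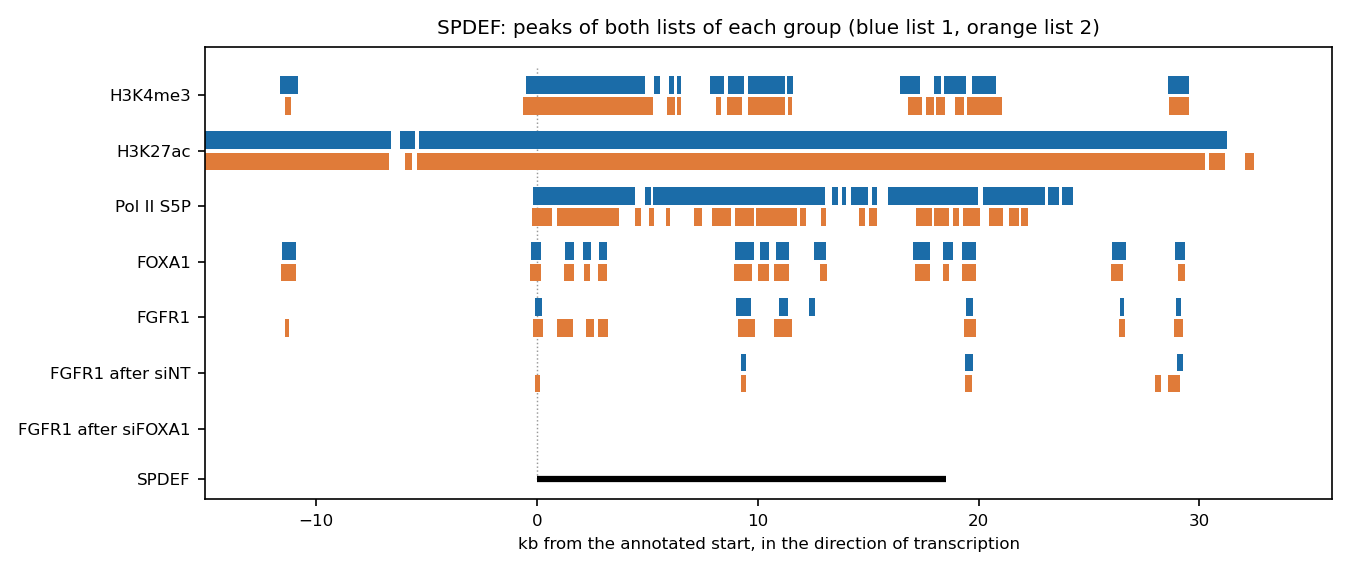
Peaks of the 14 lists around SPDEF, with list 1 in blue and list 2 in orange in each row, against distance from the annotated start in kb (the gene is the black bar and the dotted line is the RefSeq start). FGFR1 peaks stand over FOXA1 peaks at the start, in the body and beyond the 3′ end, and the siFOXA1 row is empty over the range shown.

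The rest of the SPDEF locus was marked along its whole length. A single H3K27ac region, chr6:34525073-34561750, covered 100% of the gene, with strongest folds of 65.9 and 72.1 in lists 1 and 2, above those of 99.1% and 99.4% of genes. H3K4me3 reached 107 and 110 and Pol II S5P 22.6 and 16.6, each at the start, and Pol II S5P regions covered 88.7% of the gene (a median of 0% over all genes). FOXA1 formed 18 regions in the window, 15.2 per 100 kb. SPDEF shares its window with PACSIN1 and ILRUN, and the H3K27ac region extends to an end of PACSIN1.

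ELF3 carried the strongest FGFR1 peak at a start, and FOXA1 there was modest. The FGFR1 region chr1:202010348-202010887 covers the start, with folds of 8.87 and 14.2 from 38 and 63 fragments (6.34 to 12.1 and 11.0 to 18.1), above 97.3% and 97.8% of genes in lists 1 and 2. Pol II S5P at the same place was a narrow region of 539 bp, chr1:202010344-202010882, with folds of 17.7 and 14.4. FOXA1 there had folds of 7.72 and 8.62 (mean percentile within the lists 61.9), and its summit lay 17 bp from the TATAAA match.

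FGFR1 was also found away from the ELF3 start. A region 2203 bp before it, chr1:202008169-202008599, had folds of 5.0 and 9.55, and one beyond the 3′ end, chr1:202046353-202046731, had 4.78 and 8.88. The latter lies on the strongest FOXA1 region of the window, chr1:202046032-202047496, with folds of 57.0 and 53.2. The 2 remaining FGFR1 regions lie at an end of the neighbouring gene RNPEP, chr1:201982513-201982984 with 7.05 and 9.10 and chr1:201983064-201983466 with 4.78 and 5.77, and have no FOXA1. The RNPEP end also led the window for H3K27ac (62.8 and 66.1), H3K4me3 (108 and 112) and Pol II S5P (22.1 and 19.7), against 53.4 and 53.2, 98.9 and 97.0, and 17.7 and 14.4 for ELF3 itself. H3K27ac covered 100% of the ELF3 gene and 63.4% of its window.

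GRHL2 had 1 FGFR1 region, at its H3K4me3-marked end, and the strongest FOXA1 peak inside any of these genes. The FGFR1 region chr8:101492060-101492858 had folds of 5.0 and 8.66, and Pol II S5P there had 18.8 and 15.5. The leading FOXA1 region, chr8:101607127-101608613, lay deep in the gene body with folds of 75.9 and 67.1, above 99.9% and 99.7% of genes. It was 1 of 35 FOXA1 regions in the body of this 189 kb gene, while FOXA1 at the marked end reached 14.6 and 15.9. H3K27ac was led by chr8:101483553-101522723, a stretch of 39171 bp around that end with folds of 59.9 and 65.1. No FGFR1 region of both lists lay in the GRHL2 body.

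GATA3 carried FGFR1 at inner starts, in a stretch without FOXA1. Both regions cover a RefSeq start, chr10:8053398-8053929 the one 8308 bp into the annotated gene and chr10:8054220-8054849 the one at 9355 bp. Their folds were 5.23 and 7.77 for the former and 6.14 and 7.55 for the latter, with counting intervals that overlap between lists and between regions. Pol II S5P was listed from chr10:8053466-8065254 onwards, with folds of 14.6 and 12.6, and was not listed at the 3 upstream starts. Together with chr10:8066481-8072981, chr10:8073181-8077252 and the small region chr10:8066009-8066371 it covered most of the gene, 69.2% in all. H3K4me3 was 16.9 and 20.4 at the first start and 91.2 and 92.2 over the inner ones, and H3K27ac was led by chr10:8052988-8073069, with 44.3 and 47.9.

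FOXA1 was sparser at GATA3 than at most of the set. FOXA1 formed 7 regions in the window, 5.39 per 100 kb, above 70.7% of genes. The strongest, chr10:8050583-8051003, had folds of 33.4 and 31.3 and lay 443 bp from the nearest RefSeq start, the third of the 6, which carried neither FGFR1 nor Pol II S5P in both lists. FOXA1 and FGFR1 thus lay at different starts of this gene. Its window also reaches TAF3.

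TRPS1, the other GATA-type gene, had the most FOXA1 and H3K27ac regions of the set, also per 100 kb, and no FGFR1 region. Its 260 kb body held 70 FOXA1 and 95 H3K27ac regions, and the window density was 24.1 and 28.6 per 100 kb, above 99.88% and 99.95% of genes. H3K27ac covered 42.7% of its window, less than at SPDEF (65.8%), ELF3, GRHL2 (58.9%) and TFAP2A (44.6%). The strongest FOXA1 region, chr8:115692655-115694333, lay 24519 bp outside the gene with folds of 63.2 and 58.5. FGFR1 was listed at the H3K4me3-marked end in list 2 alone, with folds of 5.33 and 4.66 in 2 peaks, and 3 more peaks of list 2 in the body had 3.33 to 4.00. That end had H3K4me3 of 104 and 106 and H3K27ac of 64.0 and 69.2. Pol II S5P had folds of 7.14 and 5.22 there and 7.36 and 5.22 at the other end, chr8:115404089-115408063, which cannot be separated. It was uneven between lists: list 1 had 102 peaks in the body and list 2 had 14. In the 1-Mb window around TRPS1, Pol II S5P peaks were 18.6 and 5.18 times as dense as over the genome, and FOXA1 peaks 5.29 and 5.40 times. The part of this regional density in the TRPS1 values was not tested.

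The AP-2 genes differed widely from one another. TFAP2A carried 4 FGFR1 regions, all inside the gene and none at its annotated ends. The strongest, chr6:10412233-10412701, covers the inner start, 7268 bp from the annotated one, with folds of 6.60 and 6.88 from 28 and 30 fragments, and has no FOXA1. A second, chr6:10412899-10413180, had 4.32 and 5.33, also without FOXA1. The remaining regions lay on FOXA1 and on the 2 strongest Pol II S5P regions of the gene: chr6:10414948-10415635 had FGFR1 folds of 4.09 and 6.44 beside Pol II S5P of 21.0 and 15.0, and chr6:10404071-10404635 had 4.78 and 6.22 beside 19.5 and 15.3. The annotated start had weaker Pol II S5P, 6.92 and 5.66, and FOXA1 of 5.01 and 4.87 with a summit 6 bp from a TATAAA match. The leading FOXA1 region of the window lay outside the gene, at chr6:10423292-10423625, with 27.1 and 26.99, and H3K27ac reached 51.3 and 55.9 at chr6:10392185-10415151.

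**Figure D3:**
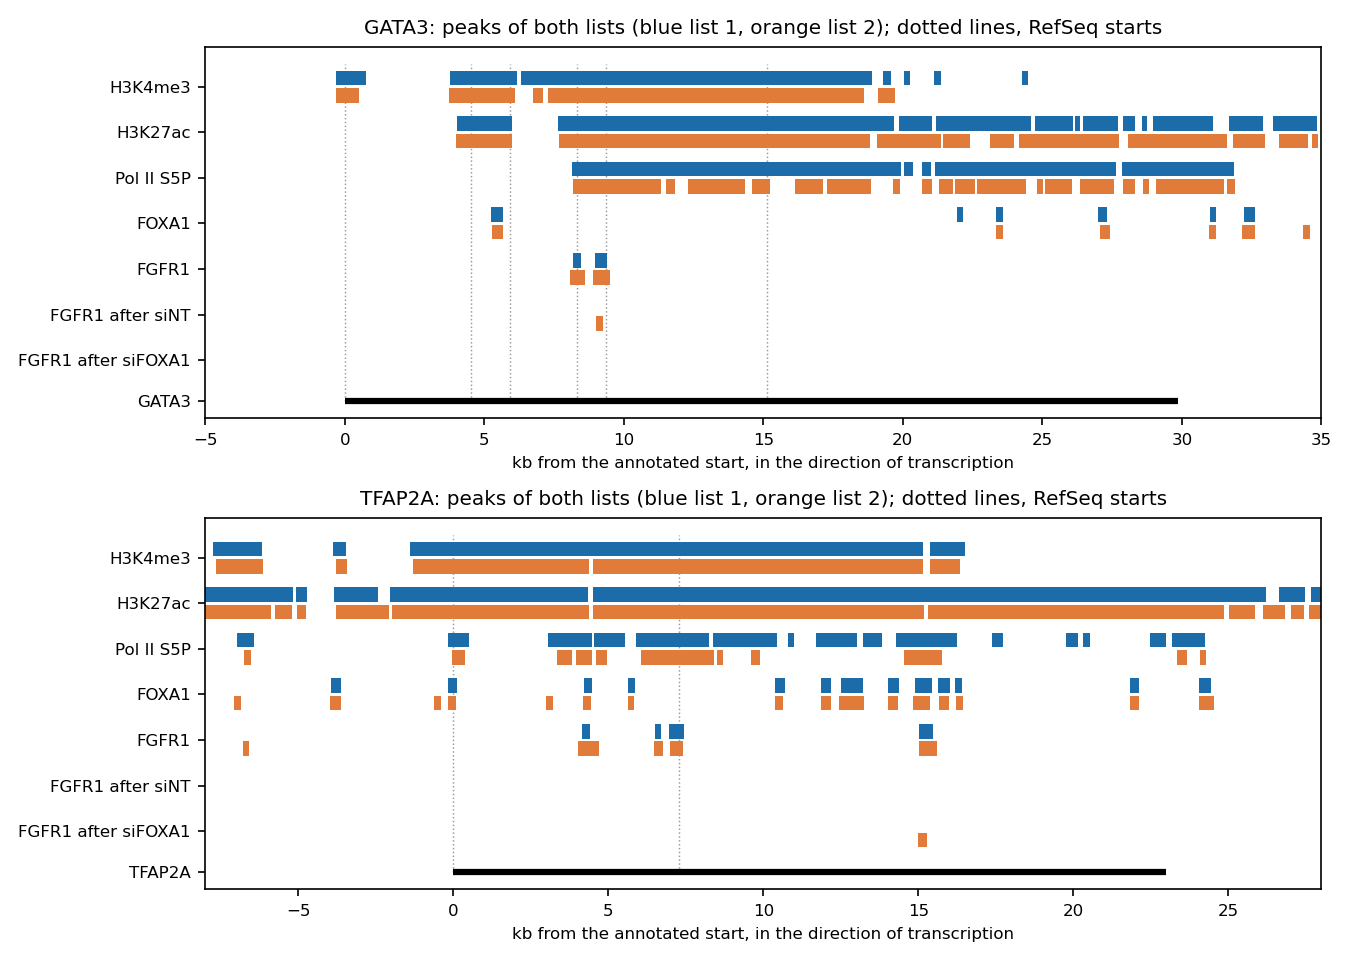
Peaks of the 14 lists around GATA3 and TFAP2A, with list 1 in blue and list 2 in orange, against distance from the annotated start in kb, with the gene as a black bar and RefSeq starts as dotted lines. FGFR1 peaks of both untransfected lists stand at the inner starts, 8308 and 9355 bp into GATA3 and 7268 bp into TFAP2A, where the FOXA1 rows are empty.

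TFAP2B lacked polymerase and FGFR1 in every untransfected list. H3K4me3 was present, with folds of 27.3 and 23.8 in the gene and 95.3 and 92.7 at chr6:50815480-50816411, 2410 bp outside it. H3K27ac in the gene was listed at 3.59 in list 1 alone, and regions of both lists, led by chr6:50815716-50816273 (9.34 and 7.02), covered 2.73% of the window, against a median of 6.79% over all genes. FOXA1 formed 7 regions, the strongest of them, chr6:50872170-50873365, with folds of 18.2 and 17.2, and that in the body with 14.6 and 12.6. After transfection a single FGFR1 peak was listed in the gene, in siNT list 2 with a fold of 4.07. TFAP2B shares its window with TFAP2D.

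TFAP2C was intermediate. Its end had H3K4me3 of 98.6 and 98.4, H3K27ac of 39.5 and 42.3 and Pol II S5P of 11.1 and 7.23. FGFR1 was listed there in list 2 alone, with folds of 6.0 at chr20:56629115-56629438 and 5.11 at chr20:56629917-56630351. The leading FOXA1 region, chr20:56624866-56625248, lay outside the gene with folds of 11.1 and 11.6, the lowest leading FOXA1 value of the 8 genes.

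Ordered by the strongest FOXA1 peak in the gene or within 1 kb of it, GRHL2 led (75.9 and 67.1), then SPDEF (62.6 and 53.2), TRPS1 (40.9 and 38.1) and GATA3 (33.4 and 31.3). TFAP2B (14.6 and 12.6) and TFAP2A (14.4 and 12.7) could not be separated, since their order turned between lists, and ELF3 (7.72 and 8.62) and TFAP2C (5.42 and 6.0) were lowest. The place of ELF3 hangs on the 1 kb limit: just beyond it lay chr1:202018348-202019478, with FOXA1 folds of 50.1 and 48.4. The values of the 2 lists can come from different places, as at TFAP2C here and at GATA3 and TFAP2A for Pol II S5P. The order for Pol II S5P was another one. SPDEF was highest in both lists, at 22.6 and 16.6, while TFAP2A (21.0 and 15.3), GRHL2 (18.8 and 15.5), ELF3 (17.7 and 14.4) and GATA3 (14.6 and 15.0) changed places from list to list. TFAP2C (11.1 and 7.23) and TRPS1 (7.36 and 5.22) followed, and TFAP2B had no peak.

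Most of these genes sat in broad marked chromatin. The widest H3K4me3 region touching the gene or within 1 kb of it was 17483 bp at TRPS1, 16568 bp at TFAP2A, 12555 bp at GATA3, 9013 bp at GRHL2, 5869 bp at SPDEF, 5225 bp at TFAP2C and 5105 bp at ELF3, and 1569 bp at TFAP2B. The median over 14812 genes with a region was 2453 bp, and the first 7 lay above 95.8% to 99.99% of those genes, TFAP2B above 19.7%. When H3K27ac regions within 12500 bp of each other were joined, GRHL2 lay in the stretch ranked 10 by length of 28203, 316 kb long, and TRPS1 in that ranked 13, 297 kb long. ELF3 followed with 157 kb, SPDEF with 101.2 kb, TFAP2A with 55.4 kb, GATA3 with 36.6 kb and TFAP2C with 11.4 kb, against a median of 13.8 kb over 15120 genes. The stretches of GRHL2, ELF3 and SPDEF run past the 50 kb windows, that of ELF3 (chr1:201999074-202155787) with most of its length beyond the window, and the joined stretches span gaps, so their length is not that of one enhancer. No stretch touched TFAP2B.

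Most FOXA1 regions carried H3K27ac at 7 of the 8 genes, TFAP2B being the exception. Of the 211 FOXA1 regions in the windows, 179 overlapped H3K27ac, 84.8% (95% Wilson interval 79.4 to 89.0, for counting error only), against 50.3% (50.02 to 50.6) of the 103989 outside and 50.4% of all. Peaks of single lists gave 84.1% ± 2.19 (SD, n = 2). Gene by gene the counts were 51 of 51 at GRHL2, 18 of 18 at SPDEF, 15 of 15 at ELF3, 17 of 18 at TFAP2A, 7 of 8 at TFAP2C, 6 of 7 at GATA3, 64 of 87 at TRPS1 and 1 of 7 at TFAP2B. The nearer background is other genes: over the 10774 gene windows with at least 5 FOXA1 regions the median share was 66.7%. GRHL2, SPDEF and ELF3, at 100%, each stood above 84.6% of those windows, since the rest also reached 100%. TFAP2A stood above 83.7%, TFAP2C above 74.9%, GATA3 above 71.6%, TRPS1 above 56.0% and TFAP2B above 5.07%. FOXA1 overlapped H3K4me3 at 37.4% of the window regions against 21.4% outside, and Pol II S5P at 14.7% against 3.94%. For these 2 no share over other gene windows is given. With a reciprocal overlap of 50% for a region of both lists, the share with H3K27ac was 69.4%. No share outside the windows or over other gene windows is given at that setting, so it cannot be set against those above.

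**Figure D4:**
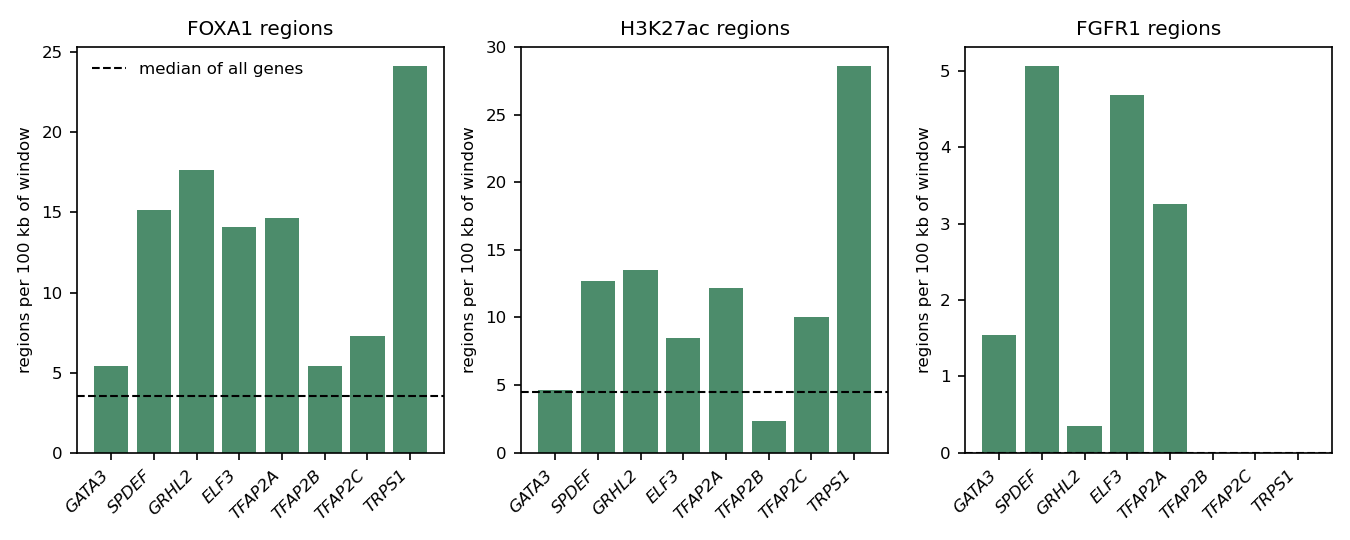
Regions of both lists per 100 kb of each gene's window for FOXA1, H3K27ac and untransfected FGFR1 (linear axes that start at 0), with the median of all protein-coding genes as a dashed line. All 8 genes lie above the FOXA1 median of 3.52, TFAP2B alone lies below the H3K27ac median of 4.51, and FGFR1 regions are found at 5 genes, where the median over genes is 0.

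FGFR1 regions in these windows lay in marked chromatin, as most FGFR1 regions over the genome did. Of the 18, H3K27ac overlapped 18, H3K4me3 17, FOXA1 12 and Pol II S5P 14, and all 4 overlapped 8. Over all 4736 FGFR1 regions the shares were 96.1%, 95.3%, 44% and 83.1%. The 6 without FOXA1 were the 2 at GATA3, 2 at TFAP2A and the 2 at the RNPEP end, and each overlapped H3K4me3, H3K27ac and Pol II S5P. By place, 4 of the 18 lay at an end of the genes, 8 in the body and 6 in the flanks. List 2 alone would give 35 regions in place of 18.

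The transfected cells asked whether FGFR1 at these genes differs once FOXA1 is targeted. FGFR1 peaks in the 8 windows numbered 9 and 10 in the siNT lists and 5 and 3 in the siFOXA1 lists, means of 9.5 ± 0.707 and 4 ± 1.41 (SD, n = 2 each). The ranges did not overlap, and the ratio of 0.421 had an exact permutation p of 0.333, two-sided, the smallest that 2 against 2 allows. The whole siFOXA1 lists were shorter too, with a ratio of 0.745. Cut to an equal length of 4332 peaks, the ratio was 0.571. Untransfected lists were not set against transfected ones, since their depth differs.

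**Figure D5:**
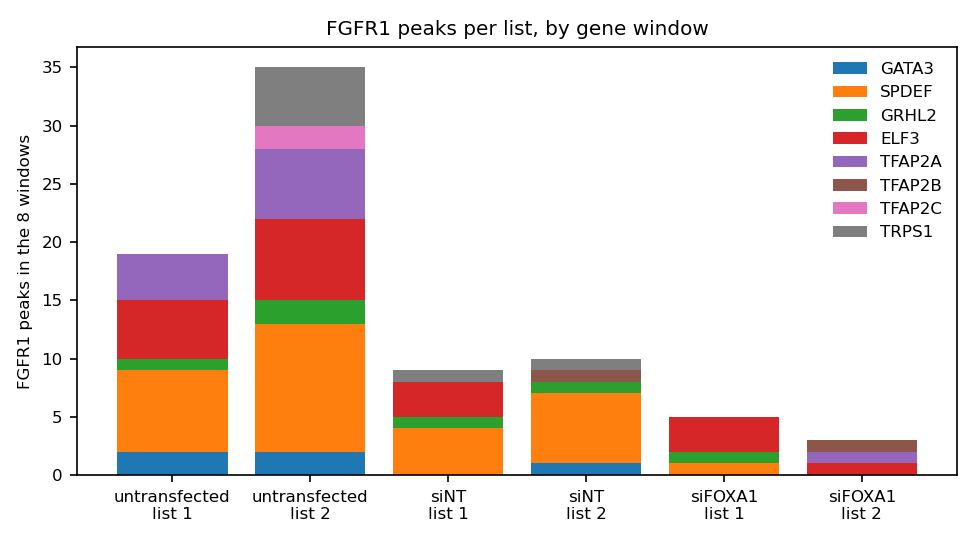
Number of FGFR1 peaks in the 8 windows in each list of untransfected, siNT and siFOXA1 cells, stacked by gene (linear axis from 0). The siNT lists hold 9 and 10 peaks and the siFOXA1 lists 5 and 3, with SPDEF giving the most in each siNT list and 1 peak in all of siFOXA1.

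The peaks fewer after siFOXA1 were mostly those of SPDEF. Its window had 4 and 6 FGFR1 peaks in the siNT lists, and 1 and 0 in the siFOXA1 lists, the 1 being a peak in the flank of list 1. Of 4 siNT regions in all windows, the 3 at SPDEF had no peak in either siFOXA1 list, 3 of 4 against 34.7% of 2231 siNT regions over the genome. By gene end, 1 of the 2 genes with a siNT region there had no siFOXA1 peak at an end, against 32.8% of 967 genes. The body region, chr6:34546836-34547096, had siNT folds of 6.90 and 5.95, the 3′ region, chr6:34536590-34536949, 5.65 and 6.89, and that beyond the gene, chr6:34527080-34527753, 5.65 and 4.70. They rested on 14 to 21 fragments in each list, where the weakest peak of a siFOXA1 list rests on 10. All 3 lie on FOXA1 of untransfected cells, with folds of 44.0 and 36.0, 44.6 and 44.2, and 3.75 and 3.56. The SPDEF start was listed in siNT list 2 alone, with a fold of 4.70.

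At the other genes the transfected lists held few peaks. The region at the marked end of GRHL2, chr8:101492471-101492722, had siNT folds of 5.96 and 5.01 and was listed in siFOXA1 list 1 with 4.50. The region beyond ELF3, chr1:202046384-202046696, was the 1 region of both siFOXA1 lists, with 4.50 and 5.94, and was listed in siNT list 1 with 4.08, so no region was gained (16.7% of 1237 siFOXA1 regions were). It lies on the strongest FOXA1 region of the ELF3 window. At the ELF3 start FGFR1 was listed in siFOXA1 list 1 alone, with 4.82, and at the inner start of GATA3 in siNT list 2 alone, with 5.01. A siFOXA1 peak of 5.32 in list 2 lay in the TFAP2A body. The 1-Mb window around SPDEF held 8 and 15 FGFR1 peaks after siNT, 4.03 and 6.89 times each list's genome mean, and 4 and 2 after siFOXA1, 2.80 and 1.20 times. These counts include the SPDEF window itself, with 4 and 6 peaks after siNT and 1 and 0 after siFOXA1. Outside that window the siFOXA1 lists were well below siNT list 2 but close to siNT list 1. Around ELF3 there were 9 and 7 after siNT, 4.54 and 3.22 times the mean, and 5 and 3 after siFOXA1, 3.50 and 1.80 times. The ELF3 window itself held 3 and 0 after siNT and 3 and 1 after siFOXA1, so its own counts were not lower. The part of this regional density in the values of the genes was not tested.

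Among relatives of these factors, FGFR1 was at an end of 2 of 14 family members, ELF1 (5.69 and 6.22) and ELF2 (15.7 and 17.8), both ETS factors. It was at 3 of 22 other luminal regulators, among them the pioneer factor gene FOXA1 (5.0 and 7.99) and the zinc-finger gene ZNF703 (12.7 and 20.7). Folds are not corrected for copy number in this FGFR1-amplified line, and the part of copy number in these values was not tested. These counts are 14.3% and 13.6% of the 2 lists, below the 19.9% of all protein-coding genes. It was at 4 of 10 luminal markers, the keratin genes KRT8 and KRT18, which share a region (6.14 and 10.9), KRT19 (8.87 and 11.99) and the cadherin gene CDH1 (5.23 and 8.44), and at none of the 10 basal, 10 mesenchymal and 8 haematopoietic markers. H3K4me3 was at 9 of the 14 family members, 18 of 22 regulators and 9 of the 10 luminal markers (not the oestrogen receptor gene ESR1), against 66.6% of all genes. FOXA1 was at 5, 11 and 7 of them, against 32.3%. After siNT, FGFR1 was at ELF2, ZNF703 and KRT19, 1 gene of each of these lists, and after siFOXA1 it was at ELF2 and at no other gene of the 3 lists. Of the markers of other cell types, SPI1, a haematopoietic factor gene, had FGFR1 after siNT. The shares of all genes given above apply to these counts too.

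The genes most like each member were found by the mean absolute difference of their percentiles of strongest fold over the 14 lists. For SPDEF these were SQSTM1 (1.62 percentile points) and JADE2 (1.63), for GATA3 OGDH (2.02) and KLF6 (3.10), and for GRHL2 KCTD20 (2.34) and NFYA (2.83). ELF3 was nearest to ZNFX1 (3.19) and POGK (3.36), TFAP2A to PPP1R10 (3.69) and CPEB2 (5.22), and TFAP2C to SNX17 (1.49) and ZNF133 (2.43). TRPS1 was nearest to TCF12 (3.65) and GSN (5.51), and TFAP2B to KCP (0.844) and PCDHB7 (3.25). No pair of members was nearest to each other. NFYA shared its rank with another gene.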

How the data were processed

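ChIP-seq peak lists of 7 groups with 2 libraries each were used as the authors deposited them, 1 list per library, so peaks were called per sample. Bowtie2, SAMtools, Picard, MACS2 and the build hg38 are named in the submitters' processing notes, without versions or roles. The deposited columns used are fold enrichment (a linear ratio over background), -log10 p-value and -log10 q-value, with the summit. The deposited score was not used. In every list the deposited p-values were those of a Poisson count against one genome-wide mean, so local variation in copy number or accessibility is not corrected. The Pol II S5P pileups were scaled by 0.711 and 0.721, so no fragments are given for them. In the H3K4me3 lists 14 and 11 peaks share the highest value, folds of 109.5 and 114, so the strongest may be truncated. Row names in the files number the untransfected FGFR1 replicates otherwise than the labels do and read FOXA2 for FOXA1, and the labels were followed.

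Rows off chromosomes 1 to 22 and X (0.0227% to 2.74% of a list) were dropped. Overlapping rows were merged, and a region needed peaks of both lists with at least 1 bp in common. Each region was assigned to a gene end (1 kb to each side), the body or the flank (50 kb), in that order. Gene spans and promoter sequences are RefSeq (GRCh38.p14). Exons were not used. The members and gene lists were chosen with earlier results of these data known. All 8 members and each FGFR1 region in their windows are named, with the leading region of the other targets by mean percentile of fold, other listed genes with FGFR1 at an end (1 is not reported here), and the 2 genes most alike in pattern. Conditions were compared over lists by an exact permutation test. Alternatives covered the threshold, overlap, windows, assignment, list length, single lists and a replicate block. Simulated data served to check regions of both lists at gene ends and lost regions only. Python 3.11.15, numpy 2.4.6, pandas 2.3.3 and scipy 1.17.1 were used.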

Additional observations from a re-analysis of the deposited data

How the results depend on the processing

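Of 155 alternatives for 19 results, 118 gave a value close to the reported one and 37 moved it. For counts, close is a loose fold limit: 135 H3K27ac regions at a reciprocal overlap of 50% counted as close to 201. Only the ratio of siFOXA1 to siNT peaks has a direction, and close means only that it kept it. The siFOXA1 lists held fewer peaks on average in each of its alternatives. Its exact permutation p was 0.667 at a -log10 q of at least 5 (ratio 0.333), where the ranges of the lists no longer lay apart. At a -log10 q of at least 5, FGFR1 after siNT was at an end of 1 gene, and the windows held 133 H3K27ac, 2 siNT and 0 siFOXA1 regions, with 0 kept. A reciprocal overlap of 50% left 11 Pol II S5P regions and a FOXA1 share with H3K27ac of 69.4%. With a gene end of 500 bp FGFR1 after siNT was at 1 gene, and with a flank of 20 kb siFOXA1 had 0 regions. Assigned by summit, H3K27ac was at an end of 3 genes and H3K4me3 of 4, by construction, since broad regions have summits inside genes. FGFR1 after siNT was then at an end of 1. The region that dropped out, 360 bp wide at the SPDEF 3′ end, has its summit outside the gene, just past the 1 kb limit. Lists of equal length gave 1 gained region. Added after seeing the data, RefSeq starts beside annotated ends gave 5 genes with FGFR1, and a peak of either list gave 5 for FGFR1 and 2 after siFOXA1.

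Single lists hold more regions than pairs of lists. Leaving out each list in turn gave 3 to 5 genes with FGFR1 at an end, 5 without list 1, and 0 to 2 after siFOXA1. Regions in the windows ranged from 19 to 35 for FGFR1, 354 to 358 for H3K27ac, 76 to 154 for Pol II S5P, 9 to 10 for siNT and 3 to 5 for siFOXA1, and the FOXA1 share with H3K27ac from 82.6% to 85.7%. Lost regions ranged from 3 to 9, kept from 0 to 2 and gained from 0 to 3. The ratio of siFOXA1 to siNT peaks ranged from 0.316 to 0.571 over all alternatives.

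The labels give siNT and siFOXA1 the same replicate numbers and do not say that a number marks a shared culture. With a replicate block, means of 8.5 regions were lost and 3 gained by number, and the ratio was 0.428 (exact sign permutation p = 0.5, the smallest that 2 pairs allow). With 2 lists a group, a low background and no read counts, an unlisted peak shows only that the caller's threshold was not met.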
